A study of Oryza sativa Japonica Group with 6 samples.

Results

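In 14 rice loci, the transcript model that held most of the expression in untreated shoots was not the one that held most of it after drying. The loci were chosen from a table of expression values for 66153 transcript models of 55801 loci. A transcript model is 1 annotated form of a locus, written as the locus name with a trailing number. Values were RPKM, read numbers scaled to the length of the model and to how many reads each library mapped, and the share of a model was its RPKM as a percentage of the summed RPKM of all models of its locus. A locus was kept where it had 2 or more models (6457 loci) and a summed RPKM of at least 5 in both control and both dehydration libraries (3892 loci). It was chosen where 1 model held at least 60% of the sum in both control libraries and a different model held at least 60% in both dehydration libraries. These models are called the control model and the dehydration model below. Of the 2762 loci with a model of at least 60% in both conditions, 2748 had the same one in both, and 14 differed.

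RNA was sequenced from seedling shoots of wild-type rice, cultivar Nipponbare, grown under continuous light and pooled for each sample. Rehydration samples were taken from 11-day-old seedlings after 8 h of air-drying and 24 h of renewed watering, dehydration samples from 10-day-old seedlings air-dried for 8 h, and control samples from untreated 10-day-old seedlings. Each condition had 2 libraries, named 1 and 2 below, and values are given in that order. The rehydrated plants were a day older than the others, so age and watering cannot be told apart, and their shoots held a mixture of recovered and damaged tissue.

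The libraries were similar in depth, which, read from the steps between low values, was 0.862 to 1 times that of control library 1. Their summed RPKM lay between 539105 and 573137, but RPKM is scaled to mapped reads and its sum does not measure library size. The labelled tissue and treatments were visible in marker genes. A chlorophyll A-B binding protein gene of green tissue, LOC_Os11g13890, had a summed RPKM of 1416 and 1106 after rehydration, 34.9 and 74.8 after dehydration and 1612 and 1295 in the control. The dehydrin gene LOC_Os02g44870, of a family of protective proteins that accumulate in drying tissue, had 758 and 915 after rehydration, 2045 and 2171 after dehydration and 21.3 and 33.8 in the control. In bulk shoots, fewer cells of a type and less RNA per cell cannot be told apart, and the part of such changes in the model shares was not tested.

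A plant locus can give several transcripts through alternative splicing, alternative start sites and alternative polyadenylation. Retention of an intron is a common form of alternative splicing in plants, and the retained sequence often brings a premature stop codon, so that the transcript may be degraded or give a shorter protein. Drought, heat and cold are known to shift splicing in many plant genes, partly through RNA-binding proteins whose own transcripts are alternatively spliced. The sources used here give no exon structure for the models of the 14 loci, so how the models of a locus differ was not analysed here.

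The loci lay on 9 chromosomes. Of their 35 models, 28 were a control or a dehydration model, and no other model held more than 19.2% of its locus in any library. Because the rule used the dehydration and control libraries, differences between these conditions are given as a description. The rehydration libraries had no part in the choice. In 13 of the 14 loci the dehydration model had a higher RPKM in both dehydration libraries than in both control libraries, and in LOC_Os05g05140 it was lower. Of all 8567 models of the 3892 loci that were tested, 32.5% were higher in this sense. The control model was lower in both dehydration libraries in 13 loci, where 32% of all models were, and overlapped with the control in LOC_Os01g62980. In 12 loci the dehydration model was higher and the control model lower.

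**Figure D1:**
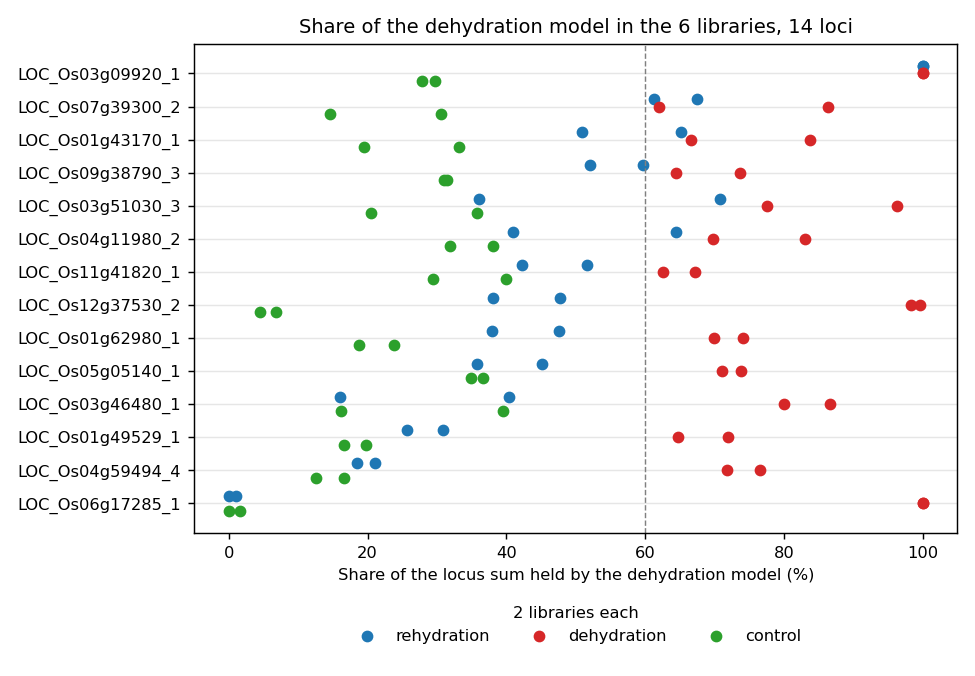
Share of the summed locus RPKM held by the dehydration model (percent, x axis) in each library of the 14 loci (rows); points are single libraries of rehydrated, dehydrated and control shoots, and the dashed line is the 60% threshold. The rule placed every dehydration point at or above 60% and every control point at or below 40%, and 21 of the 28 rehydration points lie between the dehydration and control points of their locus.

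A nearly complete exchange was found at LOC_Os12g37530, annotated as an expressed protein with no named function. LOC_Os12g37530_2, the dehydration model, had an RPKM of 12.9 and 12.5 after rehydration, 52.0 and 28.9 after dehydration and 1.68 and 2.44 in the control. LOC_Os12g37530_1, the control model, had 20.7 and 13.7 after rehydration, 0.235 and 0.498 after dehydration and 35.5 and 33.5 in the control. The mean after dehydration was 19.6-fold the control mean for the dehydration model and 0.0106-fold for the control model, while the locus sums overlapped. The dehydration model held 99.6% and 98.3% of the locus after dehydration and 4.52% and 6.80% in the control. After rehydration it held 38.1% and 47.7%, between the other conditions, and both models were present.

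LOC_Os06g17285, which has no annotation in the sources used here, also showed a nearly complete exchange, at lower expression. LOC_Os06g17285_1, the dehydration model, was listed at 0 and 0.103 RPKM after rehydration, 7.89 and 10.1 after dehydration and 0.178 and 0 in the control. LOC_Os06g17285_2, the control model, had 8.76 and 9.13 after rehydration, was listed at 0 in both dehydration libraries and had 10.6 and 13.0 in the control. Here the rehydrated shoots carried the control model nearly alone, at 100% and 98.9% of the locus.

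In LOC_Os03g09920, also without annotation, the control model was seen in the control shoots only. LOC_Os03g09920_2 had an RPKM of 5.47 and 4.96 in the control and was listed at 0 in the other 4 libraries. LOC_Os03g09920_1, the dehydration model, had 6.65 and 7.97 after rehydration, 6.39 and 5.26 after dehydration and 2.11 and 2.09 in the control. It was thus the single model with a value above 0 in the rehydrated as well as the dehydrated shoots, and held 27.8% and 29.7% of the locus in the control. The sums of the locus were low, between 5.26 and 7.97 RPKM in all 6 libraries.

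LOC_Os04g59494, again without annotation, was among the more strongly expressed of the 14 loci. LOC_Os04g59494_4, the dehydration model, had an RPKM of 9.70 and 11.5 after rehydration, 26.3 and 31.9 after dehydration and 6.24 and 9.84 in the control. LOC_Os04g59494_1, the control model, had 43.0 and 43.1 after rehydration, 8.09 and 12.5 after dehydration and 43.2 and 49.2 in the control. A further model, LOC_Os04g59494_2, was listed at 0 in every library. In the rehydrated shoots the control model held 81.6% and 79.0% of the locus, slightly below its 87.4% and 83.3% in the control, against 23.5% and 28.1% after dehydration.

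**Figure D2:**
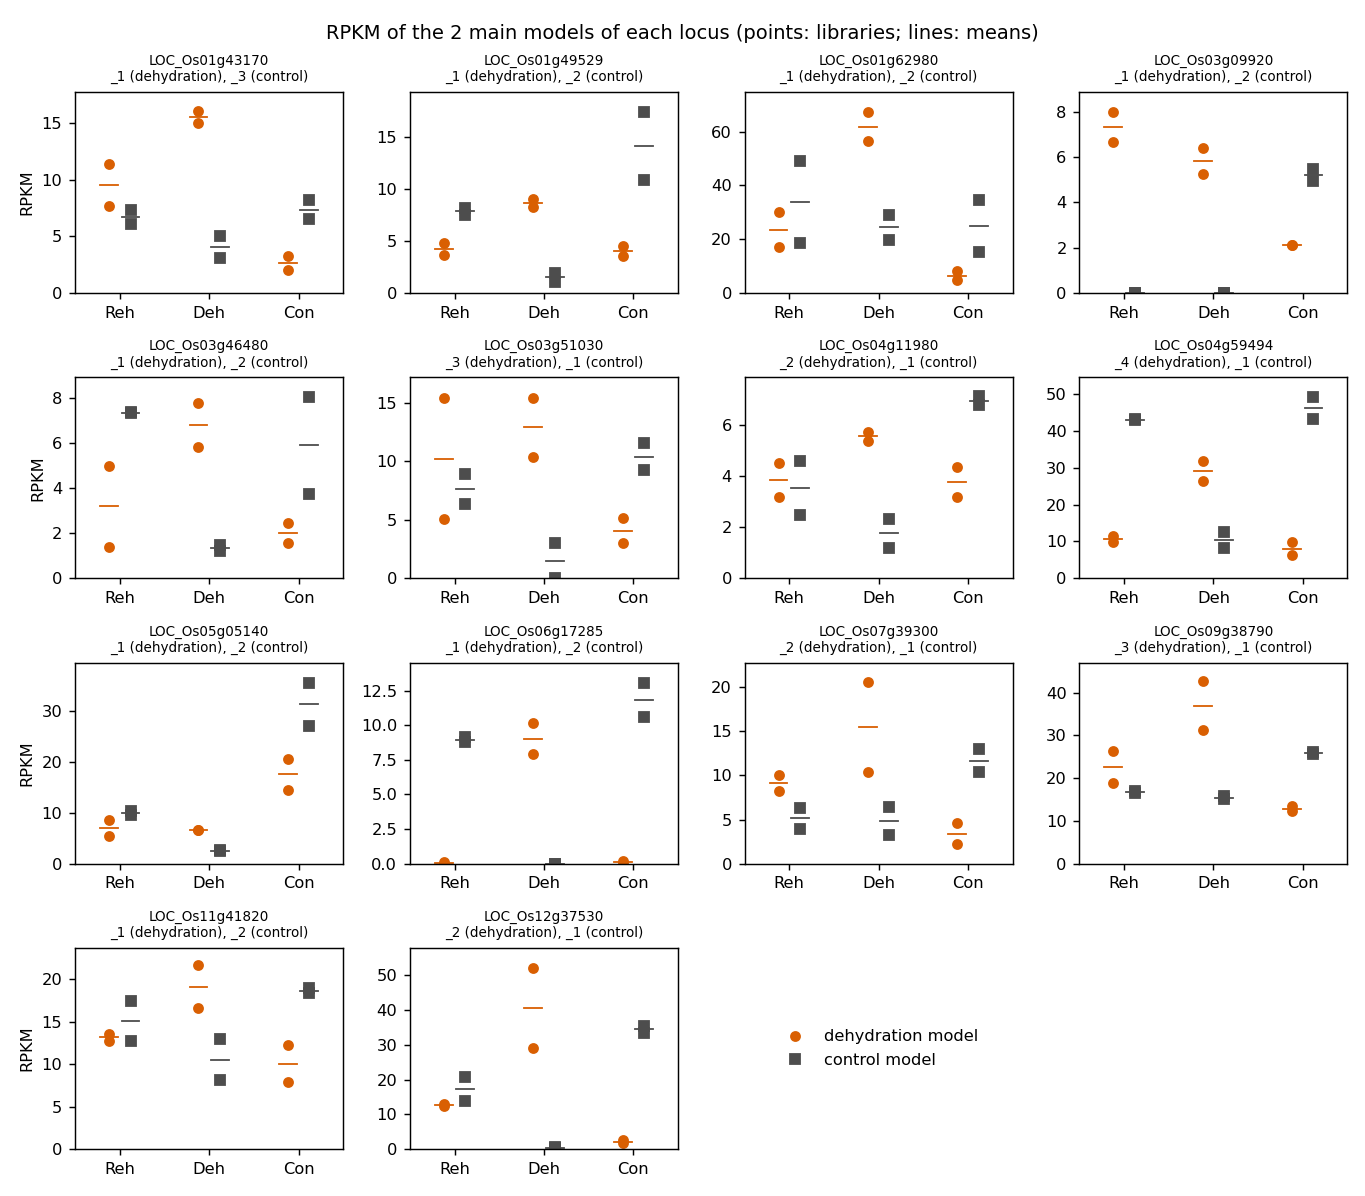
RPKM of the dehydration model and the control model of each of the 14 loci (1 panel each) in the 2 libraries of rehydrated, dehydrated and control shoots; points are single libraries and short lines their means. In LOC_Os12g37530, LOC_Os06g17285 and LOC_Os04g59494 the models cross between dehydrated and control shoots, while in LOC_Os05g05140 both models are lower after dehydration.

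Among the loci with an annotated function, LOC_Os01g43170 encodes a putative polypyrimidine tract-binding protein. Proteins of this family bind pyrimidine-rich stretches of RNA and regulate splicing, and in Arabidopsis they act on the splicing of their own transcripts. LOC_Os01g43170_1, the dehydration model, had an RPKM of 7.65 and 11.4 after rehydration, 15.02 and 16.0 after dehydration and 1.98 and 3.24 in the control. LOC_Os01g43170_3, the control model, had 7.36 and 6.09 after rehydration, 5.07 and 3.10 after dehydration and 8.18 and 6.53 in the control. The larger movement was in the dehydration model, whose mean was 5.95-fold the control mean after dehydration, against 0.555-fold for the control model. Its share was 50.9% and 65.2% after rehydration, 66.6% and 83.8% after dehydration and 19.5% and 33.1% in the control, so that it still led in both rehydration libraries. The remaining model of this locus, LOC_Os01g43170_2, was above 0 in dehydration library 1 alone, at 2.46 RPKM.

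LOC_Os09g38790 encodes ZOS9-19, a protein of the C2H2 zinc finger family, many members of which bind DNA and regulate transcription. LOC_Os09g38790_3, the dehydration model, had an RPKM of 26.4 and 18.8 after rehydration, 42.8 and 31.2 after dehydration and 13.4 and 12.3 in the control. LOC_Os09g38790_1, the control model, had 17.0 and 16.5 after rehydration, 15.1 and 15.8 after dehydration and 26.1 and 25.6 in the control. The control model after rehydration was thus near its level in dehydrated shoots, while the dehydration model lay between the other conditions. The dehydration model held 59.7% and 52.1% of the locus after rehydration, 73.6% and 64.5% after dehydration and 31.0% and 31.4% in the control.

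LOC_Os03g51030 encodes a putative phytochrome A, a photoreceptor for red and far-red light. LOC_Os03g51030_3, the dehydration model, had an RPKM of 15.4 and 5.03 after rehydration, 10.4 and 15.4 after dehydration and 5.18 and 2.97 in the control. LOC_Os03g51030_1, the control model, had 6.36 and 8.92 after rehydration, 3.01 and 0 after dehydration and 9.29 and 11.5 in the control. The locus sums of dehydrated and control shoots overlapped. Of the 14 loci this one had the widest difference between rehydration libraries, since the dehydration model held 70.8% of the locus in library 1 and 36.1% in library 2.

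LOC_Os01g49529 encodes OsWAK10d, a receptor-like cytoplasmic kinase related to the wall-associated kinases, which link the cell wall to signalling inside the cell. LOC_Os01g49529_1, the dehydration model, had an RPKM of 4.81 and 3.63 after rehydration, 8.29 and 9.07 after dehydration and 3.51 and 4.49 in the control. LOC_Os01g49529_2, the control model, had 8.21 and 7.53 after rehydration, 1.02 and 1.95 after dehydration and 10.8 and 17.4 in the control. With 4 models, this locus had the most of the 14. LOC_Os01g49529_3, a minor model, held 7.11% and 8.78% after rehydration, 4.51% and 3.85% after dehydration and 19.2% and 15.7% in the control. LOC_Os01g49529_4, also minor, held 9.39% and 12.5% after rehydration, 14.7% and 17.5% after dehydration and 0% and 3.07% in the control. The share of the first was thus lower after dehydration in both libraries, like that of the control model, and the share of the second was higher, like that of the dehydration model.

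LOC_Os03g46480 encodes a protein with a RanBP1 domain, which binds the small GTPase Ran, a regulator of transport between nucleus and cytoplasm. LOC_Os03g46480_1, the dehydration model, had an RPKM of 4.99 and 1.41 after rehydration, 7.77 and 5.85 after dehydration and 1.56 and 2.45 in the control. LOC_Os03g46480_2, the control model, had 7.36 and 7.37 after rehydration, 1.21 and 1.46 after dehydration and 8.08 and 3.75 in the control. The libraries of this locus spread widely: the control model held 71.8% ± 17.2 after rehydration, 16.7% ± 4.65 after dehydration and 72.1% ± 16.5 in the control (mean ± SD, n = 2 each). The rehydration and control shares overlapped.

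LOC_Os01g62980 encodes LTPL101, a member of the family of lipid transfer proteins, protease inhibitors and seed storage proteins. Lipid transfer proteins are small secreted proteins that bind lipids, and several are known from the formation of the cuticle. LOC_Os01g62980_1, the dehydration model, had an RPKM of 30.1 and 17.0 after rehydration, 67.4 and 56.5 after dehydration and 8.02 and 4.74 in the control. LOC_Os01g62980_2, the control model, had 49.2 and 18.7 after rehydration, 29.1 and 19.8 after dehydration and 34.6 and 15.2 in the control. This was the single locus where the difference in share lay in 1 model: the dehydration model was 9.70-fold the control mean after dehydration, and the control model was 0.982-fold with overlapping libraries.

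LOC_Os05g05140, a conserved hypothetical protein, differed in the other direction. LOC_Os05g05140_1, the dehydration model, had an RPKM of 8.52 and 5.32 after rehydration, 6.68 and 6.58 after dehydration and 20.6 and 14.5 in the control. LOC_Os05g05140_2, the control model, had 10.3 and 9.56 after rehydration, 2.37 and 2.68 after dehydration and 35.5 and 27.0 in the control. Both models were lower after dehydration, the control model to 0.0808-fold and the dehydration model to 0.378-fold of the control mean. The dehydration model came to hold 73.8% and 71.1% of a locus whose sum was 9.05 and 9.26 RPKM after dehydration, against 56.1 and 41.5 in the control.

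The other 3 loci have no annotation in the sources used here. LOC_Os07g39300_2, a dehydration model, had an RPKM of 10.1 and 8.20 after rehydration, 20.6 and 10.4 after dehydration and 4.58 and 2.21 in the control. LOC_Os07g39300_1, its control model, had 6.35 and 3.95 after rehydration, 3.26 and 6.39 after dehydration and 10.4 and 13.0 in the control. The dehydrated libraries of this locus differed by 24.4 percentage points in model share, the widest difference between dehydration libraries among the 14 loci. In the rehydrated shoots the dehydration model held 61.3% and 67.5%.

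LOC_Os04g11980_2, another dehydration model, had an RPKM of 4.52 and 3.19 after rehydration, 5.39 and 5.75 after dehydration and 3.18 and 4.38 in the control. LOC_Os04g11980_1, its control model, had 2.49 and 4.61 after rehydration, 2.33 and 1.18 after dehydration and 6.78 and 7.13 in the control. The dehydration model was 1.47-fold the control mean after dehydration, the smallest gain among the 13 loci where it was higher. LOC_Os11g41820_1, the last dehydration model, had 13.6 and 12.8 after rehydration, 16.6 and 21.7 after dehydration and 7.89 and 12.2 in the control. LOC_Os11g41820_2, its control model, had 12.7 and 17.4 after rehydration, 8.10 and 13.0 after dehydration and 19.0 and 18.4 in the control. In both loci the rehydration libraries disagreed on which model led.

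A change of main model did not go with 1 direction of the summed expression. The locus sum was higher in both dehydration libraries than in both control libraries in 4 loci, lower in 6 and overlapping in 4, beside 39.4% higher and 40% lower among the 3892 loci. These counts use the RPKM without further scaling. Scaling by median ratios moved the median log2 difference of the 14 loci from 0.02 to 0.37, and the counts were not repeated with it. Over the other settings of the fit described below, LOC_Os05g05140 stayed lower (-2.49 to -1.94) and LOC_Os01g43170 higher (0.88 to 1.33). The sums were higher in LOC_Os01g43170, LOC_Os01g62980, LOC_Os07g39300 and LOC_Os09g38790. In LOC_Os01g62980 they were 79.4 and 35.6 RPKM after rehydration, 96.4 and 76.2 after dehydration and 42.6 and 19.9 in the control. In the loci with overlapping sums, 2 libraries per condition cannot show that the sum was unchanged. Among them was LOC_Os12g37530, with 33.9 and 26.2 RPKM after rehydration, 52.2 and 29.4 after dehydration and 37.2 and 35.9 in the control. LOC_Os11g41820, at 26.3 and 30.2 after rehydration, 24.7 and 34.6 after dehydration and 26.9 and 30.6 in the control, was a further such locus. As a group the 14 loci were weakly to moderately expressed: the median over loci of the mean sum was 16.6 RPKM, against 27.9 over the 3892 loci, and 5 of the 14 lay above that of all loci.

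**Figure D3:**
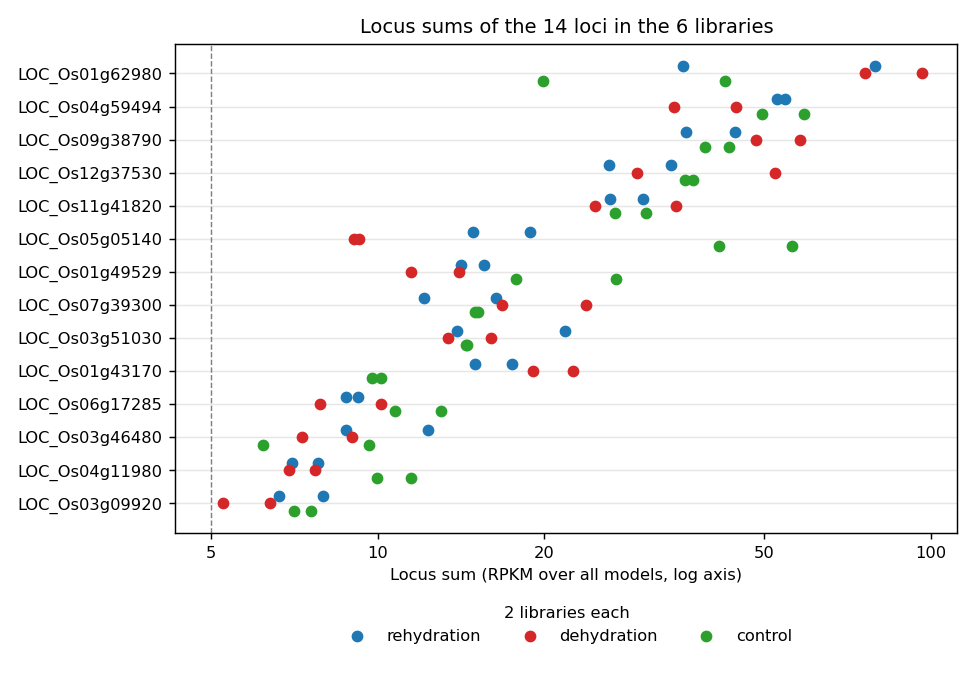
Summed RPKM of all models (log axis) for each of the 14 loci in the 2 libraries of rehydrated, dehydrated and control shoots; points are single libraries, and the dashed line is the minimum of 5 RPKM. The sums lie between 5.26 and 96.4 RPKM, and LOC_Os05g05140 shows the widest gap between dehydrated and control shoots.

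The summed expression of every locus was tested with limma on log2(RPKM + 1), with the Benjamini-Hochberg adjustment over 20816 loci and a call at an adjusted p under 0.01 with a fold over 2. One side of each comparison with the rehydrated shoots was used by the rule. Between rehydrated and control shoots 1 of the 14 loci was called, LOC_Os05g05140, which was lower after rehydration, and 0.524% of all loci were called lower. Its sum was 18.9 and 14.9 RPKM after rehydration and 56.1 and 41.5 in the control, a log2 difference of -1.47 (SE 0.22, adjusted p = 0.00911). Both rehydration libraries lay below both control libraries. This call was close to the threshold and held in 3 of 12 other settings, over which the adjusted p ranged from 0.00358 to 0.0733, and it was lost with any 1 library left out. None of the 14 loci was called higher in that comparison, in which 2.4% of all loci were called higher.

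Between rehydrated and dehydrated shoots limma called 0 of the 14 locus sums, and 0 had an unadjusted p under 0.05 with a fold over 2. Over all loci 11.6% were called higher and 2.94% lower. The sum of LOC_Os05g05140 differed by 0.81 on the log2 scale (SE 0.22, adjusted p = 0.0276), short of the threshold. Between dehydrated and control shoots LOC_Os05g05140 was called lower, at a log2 difference of -2.28 (SE 0.22), with 21.9% of all loci called lower and 12.3% higher. The median log2 difference in that comparison was 0.02 over the 14 loci and -0.35 over all loci, and scaling the libraries by median ratios moved these to 0.37 and -0.07. That scaling also changed the split of the calls: 50.1% of the loci called between dehydrated and control shoots were then higher, against 35.9% without it, and 56.3% of those called between rehydrated and dehydrated shoots, against 79.8%.

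The rehydration libraries show where the model shares lay after 24 h of renewed watering. A model held at least 60% of the locus in both rehydration libraries at 4 of the 14 loci. It was the control model at LOC_Os06g17285 and LOC_Os04g59494, and the dehydration model at LOC_Os07g39300 and LOC_Os03g09920. At the other 10 loci neither model reached 60% in both libraries. Asking only which of the pair was ahead in both libraries, the control model led at 7 loci, the dehydration model at 4, and the libraries differed at 3, which were LOC_Os03g51030, LOC_Os04g11980 and LOC_Os11g41820.

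Most rehydrated shares were intermediate. The median share of the dehydration model over the 14 loci was 43.7% after rehydration, 75.3% after dehydration and 25.8% in the control. Of the 28 rehydration values, 21 lay between the dehydration and the control values of the locus, 3 lay within the dehydration range or above it, and 4 within the control range or below it. At 9 loci both rehydration libraries were intermediate. The rule itself set the dehydration and control shares apart, so that a value between them is a place on that range and not a test.

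The spread between the rehydration libraries limits these positions. They differed in the share of the dehydration model by a median of 9.38 percentage points over the 14 loci, and by 0 to 34.7 points. Libraries of dehydrated shoots differed by a median of 5.61 points and libraries of control shoots by 4.51 points. These 2 conditions were held together by the rule and the rehydration libraries were not. Of the 5 loci with a model of at least 60% in each rehydration library, 1 had different models in the libraries, LOC_Os03g51030.

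The balance between the models of a locus was also tested for every model. The measure was log2 of the RPKM of a model plus 1 over the summed RPKM of the other models plus 1, fitted with limma over 8567 models, with the same thresholds. The rule chose the 14 for a high balance in the dehydration libraries and a low balance in the control libraries, so a lower balance than in dehydration and a higher one than in the control are favoured by the choice. The counts of the 14 are therefore given as a description, and nothing is read from them against those of all models. Between rehydrated and dehydrated shoots limma called 0 of the 14 dehydration models, as it did 0% of all models in either direction. At an unadjusted p under 0.05 with a fold over 2, 8 of the 14 were lower after rehydration, beside 4.1% of all models, and 0 were higher, beside 4.91%. The nearest to the threshold was LOC_Os06g17285_1, with a log2 difference of -6.56 (SE 0.43, limma adjusted p = 0.0151). LOC_Os12g37530_2 followed at -5.26 (SE 0.53, limma adjusted p = 0.0713) and LOC_Os04g59494_4 at -3.37 (SE 0.42, limma adjusted p = 0.101). Where a model is at or near 0 the size depends on the pseudocount: with 0.1 in place of 1, LOC_Os06g17285_1 differed by -12.48 and LOC_Os12g37530_2 by -6.86.

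Between rehydrated and control shoots limma likewise called 0 of the 14 dehydration models and 0% of all models. At an unadjusted p under 0.05 with a fold over 2, 6 of the 14 were higher after rehydration, beside 4.4% of all models, and 0 were lower, beside 4.47%. LOC_Os03g09920_1 had the largest difference, 4.05 (SE 0.37, limma adjusted p = 0.114), which was 7.48 with a pseudocount of 0.1, and LOC_Os12g37530_2 the next, 3.15 (SE 0.53, limma adjusted p = 0.202). For LOC_Os03g46480_1 the difference was 0.00 (SE 0.67), and it took either sign when single libraries were left out.

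Between dehydrated and control shoots, the contrast that chose the loci, limma called 2 of the 14 dehydration models higher. Of all models 0.0233% were called higher and 0.035% lower. These percentages are not a separate background. The models called higher were the 2 themselves, and those called lower were the control models of their loci and LOC_Os07g05360_1. LOC_Os07g05360_1 held 100% and 97.9% of its locus after dehydration and 99.7% and 99.8% in the control. Its RPKM was 6.56 and 7.96 after dehydration and 749 and 657 in the control. Where the other models are near 0, the measure follows the locus sum, so this call shows no exchange of models. The 2 called higher were LOC_Os12g37530_2, at 8.42 (SE 0.53), and LOC_Os06g17285_1, at 6.87 (SE 0.43). With a pseudocount of 0.1 these differences were 10.46 and 12.65. All 14 had an unadjusted p under 0.05 with a fold over 2, beside 7.16% of all models that were higher and 7.49% that were lower. Both calls were absent with a pseudocount of 0.1, with the replicate number as a block (limma adjusted p = 0.0807 for each), and with any of the 6 libraries left out. As the rule used these libraries, the calls support nothing further, and the description as an exchange of main models rests on the shares for all 14 loci.

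**Figure D4:**
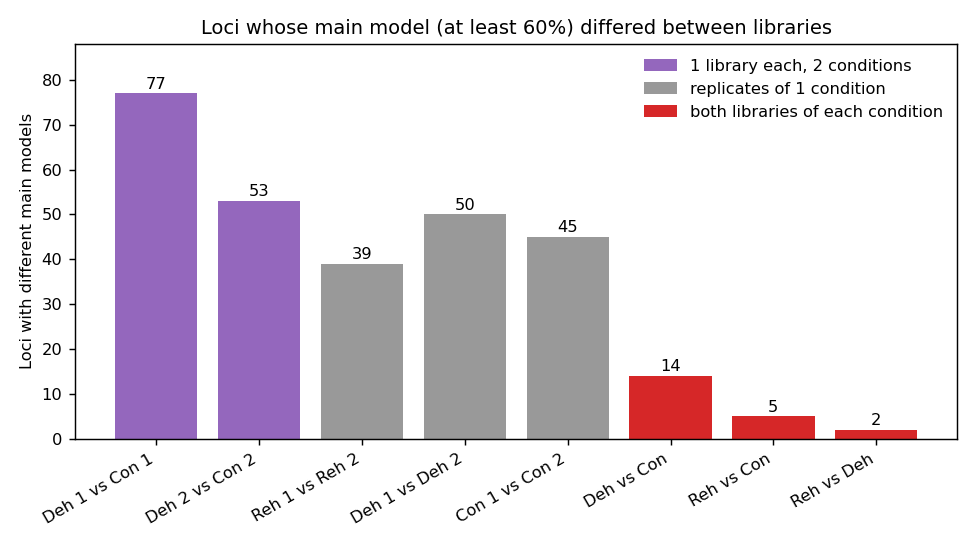
Number of the 3892 loci (y axis) whose model of at least 60% differed between 2 libraries or between 2 conditions; Deh is dehydration, Reh rehydration and Con control, and the loci of the last 2 bars come from 4579 and 4022 loci with a sum of at least 5 in the libraries compared. Single libraries of dehydration and control differ at 77 and 53 loci, and single libraries of 1 condition at 39 to 50. Both libraries of dehydration against both of control, a stricter comparison, differ at 14.

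The rule asks for both libraries of each condition, and single libraries gave many more differences. Dehydration library 1 and control library 1 had different models of at least 60% at 77 loci, and of these 14 showed the same exchange between the libraries numbered 2. A further 23 kept a single model there, 4 showed the opposite exchange, and 36 lacked a model of 60% in a library. In the other order, 53 loci differed between the libraries numbered 2, and 14 of them, 26.4%, showed the same exchange between those numbered 1. The same count between libraries of a single condition was 39 of 3892 loci (1%) for rehydration, 50 (1.28%) for dehydration and 45 (1.16%) for the control. A change of main model between single libraries thus also occurred without a change of condition, and the 14 loci were 0.36% of those that could have been chosen.

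The rule was also applied to the other pairs of conditions. Between rehydration and dehydration 2 of 4022 loci met it (0.0497%), and both were among the 14: LOC_Os04g59494 and LOC_Os06g17285. Between rehydration and the control 5 of 4579 loci met it (0.109%). LOC_Os03g09920 and LOC_Os07g39300 were among them, and LOC_Os07g11010, LOC_Os09g31280 and LOC_Os12g02420 were not among the 14. These comparisons share the libraries of a condition with the one that chose the loci.

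**Figure D5:**
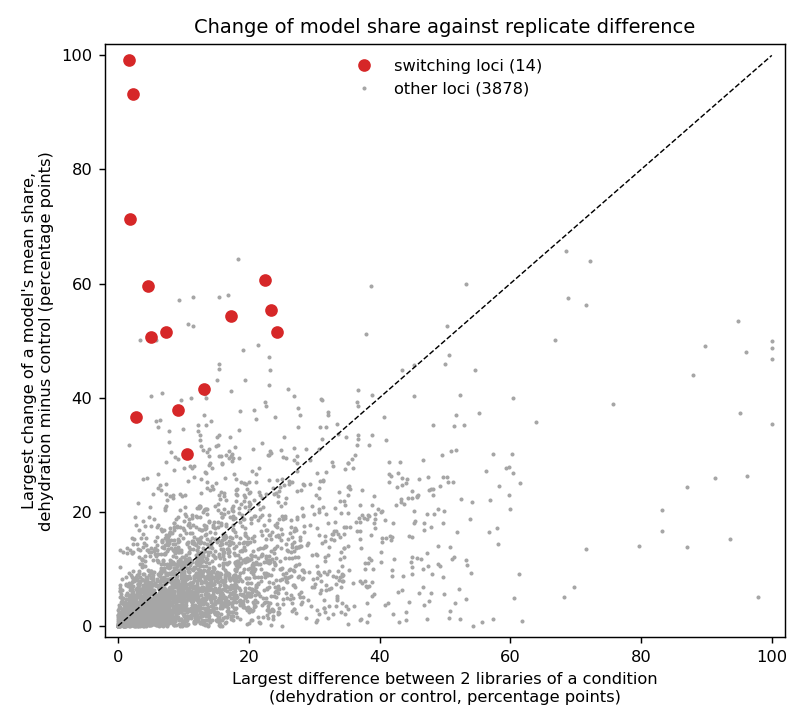
Largest difference in model share between the mean of dehydrated and the mean of control shoots (y axis, percentage points) against the largest difference between libraries of 1 of these conditions (x axis, percentage points) for 3892 loci, with the 14 chosen loci marked. All 14 lie above the line of equal values, as do 1009 loci in all.

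The size of the share differences was set against the spread between libraries in the same way. In each locus the model with the largest difference in mean share was taken. The median over the 3892 loci was 3.82 percentage points between rehydrated and dehydrated shoots, 3.96 between rehydrated and control shoots and 4.63 between dehydrated and control shoots. Between libraries of a single condition it was 4.68 for rehydration, 4.68 for dehydration and 4.89 for the control. The median locus thus differed between conditions by about as much as between libraries, although the means of 2 libraries vary less than single ones. For the 14 loci the median was 30.6 points between rehydrated and dehydrated shoots, 19.6 between rehydrated and control shoots, and 53.0 between dehydrated and control shoots, where it ran up to 99.2. Their difference between dehydrated and control shoots was larger than that between the libraries of either condition in 14 of 14, as in 25.9% of all loci, a direction that the rule favours.

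Beyond asking for 2 or more models, the rule did not name their number or order. The 14 included 8 loci with 2 models, 5 with 3 and 1 with 4, where 58.0%, 25.0% and 9.76% of the 3892 loci had these numbers. Model 1 of a locus was the control model in 6 of the 14 and the dehydration model in the other 8. Over the 2762 loci with a main model in both conditions, model 1 was the main model of the control in 76.7%. Of these loci 2748 kept their main model, which the rule excludes from the 14, so nothing is read from this difference. Annotation was at hand for 8 of the 14 and 20.3% of the 3892 loci. The tables it came from mostly list genes that the study called differential in these samples, so carrying an annotation is not independent of the rule, and nothing is read from these shares or from the lists by words. By the words of their annotation, 82 of the 3892 loci were transcription factors, 1 of them among the 14 (LOC_Os09g38790), and 55 were kinases or phosphatases, 1 of them among the 14 (LOC_Os01g49529). None of the 15 loci of RNA binding and splicing, 43 transporters, 18 chloroplast, 32 protein turnover or 7 chaperone loci, listed by words, was among the 14. The words of the first of these lists do not occur in the annotation of the polypyrimidine tract-binding protein.

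The boundary of the group was set by the 60% threshold. The lowest of the 4 shares was 60.1% in LOC_Os11g41820, 60.4% in LOC_Os09g38790 and 60.5% in LOC_Os03g46480, the loci just inside it. It was 59.2% in LOC_Os01g64170, a glycosyl hydrolase of family 17, 58.9% in LOC_Os12g02420, the transcription factor WRKY97, and 56.6% in LOC_Os01g12810, annotated as a retrotransposon protein, the loci just outside it. At a threshold of 70% there remained LOC_Os03g09920, LOC_Os04g59494, LOC_Os06g17285 and LOC_Os12g37530, and at 80% LOC_Os06g17285 and LOC_Os12g37530.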

How the data were processed

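Stranded mRNA libraries made from total RNA of 6 shoot samples were sequenced. The authors mapped the reads to the rice genome and deposited 1 table of RPKM values, normalized by them for model length and mapped reads, with a row for each transcript model. How reads shared by models of a locus were assigned is not given in the sources used here. Its part in the shares was not tested.

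Sums and shares were computed with Python 3.11.15 (numpy 2.4.6, pandas 2.3.3) and drawn with matplotlib 3.10.9. Fits used limma 3.58.1 in R 4.3.3 with an abundance trend over all 6 libraries in 3 groups, a pseudocount of 1 RPKM and loci or models of at least 1 RPKM in at least 2 libraries, and were tested on simulated data. A pseudocount understates differences of low values, and the table gives no read numbers, so depth is given as a ratio between libraries. An exact permutation test of 2 against 2 libraries cannot go below p = 0.333 and was not used.

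The loci and lists were chosen with earlier results of these data known. All 14 loci were named, beside the 3 loci nearest outside the threshold. Annotation was taken from tables of the study, which mostly list genes it called differential in these samples. Libraries of a condition are separate biological replicates. Same-numbered libraries were not treated as pairs in the main fit. The correlations of their deviations were 0.197 for rehydration and dehydration, 0.130 for rehydration and control, and 0.0576 for dehydration and control. All were low but positive, so they do not settle whether the libraries pair. Alternatives were other share and sum minimums, pseudocounts, filters, scalings, thresholds, a replicate block and leaving out each library.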

Additional observations from a re-analysis of the deposited data

How the results depend on the processing

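The number of loci that met the rule was 14, and became 52 at a share minimum of 50%, 4 at 70%, 2 at 80%, 37 at a locus sum minimum of 1 RPKM, 8 at 10 RPKM and 27 to 45 with a dehydration or control library left out, which loosens the rule. All 14 were among those in each setting looser than the rule, as they must be. After rehydration the control model held the minimum at 2 loci, at 7 with 50%, at 1 with 80% and at 4 to 5 with a library left out. The dehydration model held it at 2 loci, at 4 with 50%, at 1 with 70%, at 1 with 80% and at 3 to 4 with a library left out. Neither did at 10 loci, at 3 with 50% and at 6 with either library left out.

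In the balance of models (limma), dehydration minus control called 5 models, 2 of them dehydration models of the 14 loci. Beside these it called the control models of the same 2 loci. It also called LOC_Os07g05360_1, which lies outside the 14 and held 97.9% or more of its locus in both conditions. It called 0 and 0 with a pseudocount of 0.1, 31 and 4 at an adjusted p under 0.05, and 0 and 0 with each library left out. Rehydration minus dehydration called 0 models, and at an adjusted p under 0.05 it called 3, 1 of them a dehydration model of the 14 loci. For locus sums, rehydration minus dehydration called 3036 loci, 1216 with no filter, 5061 at an adjusted p under 0.05 and 0 to 3096 with a library left out. It called 0 without rehydration library 1 or 2. Rehydration minus control called 609 loci, 164 with no filter, 949 with quantile normalization, 1806 at an adjusted p under 0.05 and 76 to 740 with a library left out. Its 1 call among the 14 became 0 with a pseudocount of 0.1, no filter, median-ratio scaling or any library left out. Dehydration minus control called 7124 loci and 3697 to 6543 with a library left out. Its 1 call among the 14 became 2 with a pseudocount of 0.1, median-ratio scaling, quantile normalization or an adjusted p under 0.05, and 1 to 2 with a library left out. Of the locus sums called, quantile normalization left 48.2% higher in dehydration minus control (35.9% before), 60.7% in rehydration minus dehydration (79.8% before) and 70.4% in rehydration minus control (82.1% before).

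With the replicate number as a block, the balance of models called 0 models in dehydration minus control and 0 of the 14. For locus sums, rehydration minus control then called 1233 loci, against 609 without the block. Rehydration minus dehydration called 4011, against 3036, and dehydration minus control called 2 of the 14 locus sums. Whether same-numbered libraries pair was not settled. Single values reversed in 4 of 570 recomputed cases and kept their side of the threshold in 532, while 25 lost a call and 9 gained one. These values were the balances of the 14 dehydration models and the sums of LOC_Os01g43170, LOC_Os01g62980 and LOC_Os05g05140. Most of them were not called in the main fit, so the 532 do not measure how stable the calls were. Rehydration minus dehydration was -0.028 for LOC_Os03g09920_1 with median-ratio scaling, against 0.28 in the main fit. This model held 100% of its locus in both conditions, so its value there follows the locus sum and shows no change of share. For LOC_Os07g39300_2 rehydration minus dehydration was -1.60 to 0.11 with a library left out, the highest without dehydration library 1. Rehydration minus control of LOC_Os03g46480_1 was -0.68 to 0.69 with a library left out, and below 0 without rehydration library 1 or control library 1. The causes were not tested for LOC_Os07g39300_2 and LOC_Os03g46480_1.

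The reads behind each model are not in the table, so the counting error of a share is not known. A lone library left in a condition was assumed to vary like the others.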

Other observations

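The loci below lie outside the 14 and were named after their values were seen. LOC_Os07g11010, a kinase-associated protein phosphatase, had model 2 at 100% of the locus in both rehydration libraries, 65.8% and 33.7% in dehydration and 0% and 25.6% in the control. LOC_Os09g31280, without annotation, had model 1 at 70.7% and 75.0% after rehydration, 94.1% and 100% after dehydration and 34.9% and 23.9% in the control. LOC_Os12g02420, WRKY97, had model 1 at 61.8% and 69.7% after rehydration, 58.9% and 66.9% after dehydration and 38.5% and 25.5% in the control. Of the pairs of conditions, these 3 loci met the rule between rehydration and the control. LOC_Os09g31280 also passed the 60% shares between dehydration and the control, with model 2 at 65.1% and 76.1% in the control, and missed the rule there because its dehydration sums were under 5 RPKM.

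At 4 loci the libraries numbered 1 and those numbered 2 showed opposite exchanges between dehydration and control. At LOC_Os09g25070, the transcription factor WRKY62, model 1 held 66.8% and 31.6% after dehydration and 37.9% and 66.5% in the control. LOC_Os03g16570, without annotation, was the widest of them, with model 1 at 2.12% and 100% after dehydration and 82.2% and 9.69% in the control. LOC_Os06g04640 and LOC_Os02g04230 were the others.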
